A study of Mus musculus with 4 samples.

Results

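The genes that encode the γδ T cell receptor were followed across the cells of mouse subcutaneous fat that carry a reporter of choline acetyltransferase (ChAT). The set was chosen by name and not by level. It holds the δ constant gene Trdc, the γ constant genes Tcrg-C1, Tcrg-C2 and Tcrg-C4, and the variable segments Trgv2 and Trdv4. All 6 were in the feature table, which listed 31053 genes. Cells came from the stromal vascular fraction (SVF) of inguinal white adipose tissue (IWAT) of male ChATBAC-eGFP mice, which were 5 weeks old when they were moved to thermoneutrality (30 °C) for 3 weeks. Mice then either stayed at 30 °C or were placed at 4 °C for 4 h, and those of the cold group had spent a day at room temperature before the cold. Each library was made from live ChAT-eGFP+ cells of 4 pooled mice, and there were 2 libraries per temperature. The reporter is a transgene on a bacterial artificial chromosome, so a sorted cell is one in which that transgene was on. Single mice cannot be told apart within a pool.

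A T cell receptor is a pair of chains, and a γδ T cell carries a γ and a δ chain where most T cells carry an α and a β chain. Each chain joins a variable segment, which binds the target, to a constant segment, which holds the chain in the membrane and docks the CD3 signalling subunits. The mouse γ locus holds several constant genes, each with its own variable segments close by, so the constant gene in a transcript tells which cluster of the locus was used. In adipose tissue, γδ T cells are known as a resident source of interleukin-17A (IL-17A). Transcripts of T cell receptor loci are also known in innate lymphoid cells, which carry no T cell receptor.

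The 6 genes lie in 2 loci of the mm10 (GRCm38) genome, as the GENCODE M21 annotation gives them. Trdc spans chr14:54142851-54148868 on the plus strand, and Trdv4 lies before it on the same strand at chr14:54074905-54075515. A further δ segment, Trdv5, lies on the minus strand at chr14:54148662-54149294, so its end overlaps the end of Trdc, and reads there can be assigned only by their strand. On chromosome 13, Tcrg-C1 spans chr13:19214103-19217024 and Tcrg-C4 spans chr13:19344558-19352756, both on the plus strand. Tcrg-C2 spans chr13:19304649-19307551 on the minus strand, and Trgv2 lies before it on that strand at chr13:19336573-19337167. The 3 γ constant genes are copies of one another. Their first coding exons, 330 bases each, are 97.3% identical between Tcrg-C1 and Tcrg-C2 (9 differing bases) and 82.1% identical between Tcrg-C1 and Tcrg-C4 (59 differing bases). The stretch from base 145 to base 204 of that exon, counted from its first base, holds 18 of the bases at which the 3 copies differ, and is shown because chain use rests on telling the copies apart. Bases at which the 3 copies are not all the same are in capitals, each line reads 5′ to 3′ along the gene's own strand, and the sequences are GENCODE M21 transcripts on GRCm38.
Tcrg-C1, chr13:19214247-19214306, plus strand: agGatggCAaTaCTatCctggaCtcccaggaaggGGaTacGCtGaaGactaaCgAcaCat
Tcrg-C2, chr13:19307348-19307407, minus strand: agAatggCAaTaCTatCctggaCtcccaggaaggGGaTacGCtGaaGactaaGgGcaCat
Tcrg-C4, chr13:19344702-19344761, plus strand: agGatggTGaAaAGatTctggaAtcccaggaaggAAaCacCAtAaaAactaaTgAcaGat
Most of the capitals set Tcrg-C4 apart, and few separate Tcrg-C1 from Tcrg-C2. The end of the transcript, which a 3′ kit reads, is clearly less alike only for Tcrg-C4. After the coding end, Tcrg-C1 and Tcrg-C2 are 94.1% identical, counted with gaps allowed, unlike the first exon. Their longest shared run is 104 bases there, beside 71 in the first coding exon. Tcrg-C1 and Tcrg-C4 share no run over 9 bases after the coding end. The split between Tcrg-C1 and Tcrg-C2 is therefore uncertain for reads that fall in shared runs, and how such reads were counted is not given in the sources used here.

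The 4 libraries held 26654 barcodes, of which 21253 passed the filters, with a median of 7520 to 8068 unique molecular identifiers (UMIs, counted molecules) per kept cell and library. Chat was detected in 33.4% to 43.8% of kept cells and Ptprc, the pan-leukocyte marker CD45, in 89.98% to 94.7%. A barcode shared by 2 libraries was seen 81 times. Replicates differed from each other by more than sampling noise, so none was a second copy of another. Clusters were built without any T cell receptor gene and named by markers, so that the genes under study did not shape the classes. The class called γδ T-like held 672 cells and was led by Il17a, by Cd163l1 and 5830411N06Rik, which are scavenger receptor genes of IL-17-producing γδ T cells, and by 4 of the 6 genes themselves.

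Trdc, Tcrg-C1 and Tcrg-C2 were found mainly in 2 classes, and Tcrg-C4 in 3. Of 18410 Trdc UMIs in kept cells, 33.5% lay in the 672 γδ T-like cells and 61.9% in 1498 proliferating T-like cells, a class led by Gzma and cell cycle genes such as Top2a. The level of Trdc, in UMIs per 1000000 summed UMIs of a class (CPM), was 1230 and 968 in the γδ T-like cells of the 30 °C libraries and 786 and 858 in those of the 4 °C libraries. In αβ T-like cells it was 6.50, 9.31, 4.61 and 15.1 CPM in the same order. In B-like cells, which use neither chain, it was 2.17, 2.59, 0.485 and 0.565 CPM. These are levels of 1 gene compared between classes, and because Trdc and Tcrg-C1 were among the leading genes of the γδ T-like class, they are given as a description. Detection followed the same order, with a Trdc UMI in 67.6% of γδ T-like cells, 21.2% of proliferating T-like cells, 9.14% of innate lymphoid group 2-like (ILC2-like) cells, 1.95% of αβ T-like cells and 1.24% of B-like cells.

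The order of classes was not the same for all 6 genes. For Tcrg-C1, Tcrg-C2 and Trgv2 it was γδ T-like, then proliferating T-like, then the rest. For Tcrg-C4 the ILC2-like cells came second, with 88.3 CPM over the pooled class beside 121 CPM in γδ T-like and 32.7 CPM in proliferating T-like cells. Of 2772 Tcrg-C4 UMIs, 35.0% lay in proliferating T-like, 30.6% in ILC2-like and 27.2% in γδ T-like cells. For Trdv4 the order of the next classes turned with temperature. Proliferating T-like cells had 58.7 and 95.1 CPM against 41.8 and 62.5 CPM in ILC2-like cells of the 30 °C libraries, and 15.2 and 13.5 CPM against 52.2 and 62.0 CPM in those of the 4 °C libraries. In each other class the pooled level was under 5 CPM for 5 of the genes, and for Trdc it was highest in T-like cells with NK genes, at 15.8 CPM. Stromal-like cells held 1 UMI of Trdc among 216 cells.

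**Figure D1:**
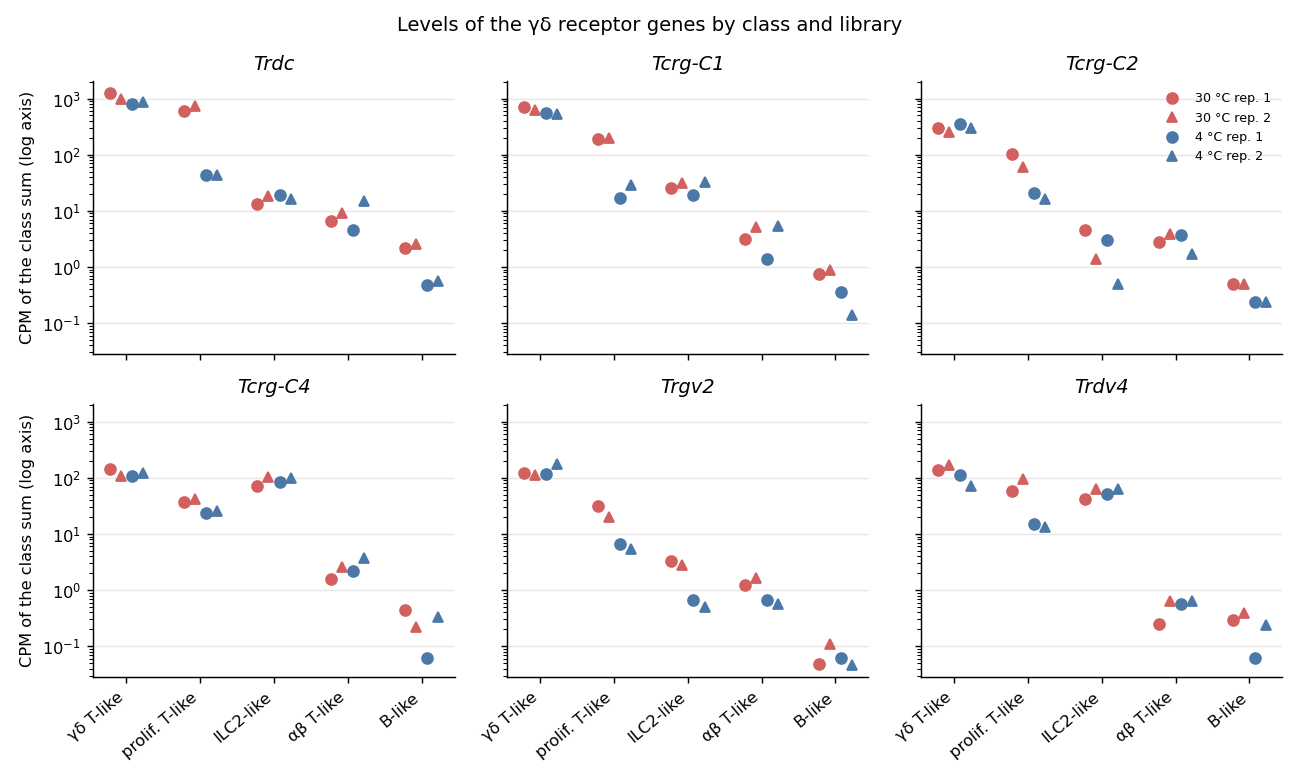
Level of each gene in the summed UMIs of 5 classes (CPM, log axis), with 1 point per library (red for 30 °C, blue for 4 °C; circle for replicate 1, triangle for replicate 2). Trdc in proliferating T-like cells lies at 603 and 727 CPM at 30 °C and at 42.8 and 43.7 CPM at 4 °C, while Tcrg-C4 in ILC2-like cells lies between 71.2 and 103 CPM in all 4 libraries.

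Within the γδ T-like class, Tcrg-C1 was the most used γ constant gene in every library. It held 60.9% and 63.6% of the γ constant UMIs in the 30 °C libraries and 54.9% and 55.6% in the 4 °C libraries. Tcrg-C2 held 26.2% and 25.4% at 30 °C and 34.6% and 31.4% at 4 °C. Tcrg-C4 held the least, with 12.8% and 11% at 30 °C and 10.6% and 13.1% at 4 °C. Each share counts transcript ends and is not divided by length. The temperatures did not overlap for Tcrg-C1, with 62.3% ± 1.89 (SD, n = 2) at 30 °C against 55.2% ± 0.488 at 4 °C, nor for Tcrg-C2, with 25.8% ± 0.564 against 33.0% ± 2.25. An exact permutation test over libraries gave p = 0.33 for both, two-sided, which is the smallest value that 2 against 2 libraries can give, and p = 1 for Tcrg-C4. The Tcrg-C2 difference of 7.14 percentage points was 1.40 among γδ T-like cells without a UMI of the α constant gene Trac, where 4 °C replicate 2 had 21.3% of its 249 γ constant UMIs on Tcrg-C2. Tcrg-C1 held 61.9% and 62.5% in those cells at 30 °C and 52.1% and 62.7% at 4 °C, so the temperatures overlapped.

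UMIs of more than 1 γ constant gene were counted in single cells. The split between Tcrg-C1 and Tcrg-C2 is uncertain in shared runs, and its part in these counts was not tested. Among the 343 γδ T-like cells with at least 5 Trdc UMIs, all 3 γ constant genes were found in 159 (46.4%), Tcrg-C1 and Tcrg-C2 in 85, Tcrg-C1 and Tcrg-C4 in 58, and Tcrg-C1 alone in 32. Tcrg-C1 had the most UMIs in 254 of these cells (74.1%), Tcrg-C2 in 62 and Tcrg-C4 in 9. By library, the share with Tcrg-C1 in front was 74.4% and 82.3% at 30 °C and 63.3% and 65.2% at 4 °C. A γ transcript was missing from only 1 of the 343 cells, so δ and γ chains were nearly always found together where Trdc was abundant.

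The variable segments gave fewer UMIs than the constant genes. Trgv2 stood at 122 and 115 CPM in γδ T-like cells at 30 °C and at 116 and 179 CPM at 4 °C, and the groups overlapped. Trdv4 stood at 137 and 170 CPM at 30 °C and at 111 and 71.4 CPM at 4 °C, without overlap. Per Trdc UMI there were 0.111 and 0.176 Trdv4 UMIs at 30 °C and 0.142 and 0.0832 at 4 °C, and the groups overlapped. A 3′ kit rarely reads the variable end of a transcript, and a low count of a segment is no measure of how many receptors used it.

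α and β chain transcripts were found in the same class. Of the 672 γδ T-like cells, 258 had a Trdc UMI without Trac, 196 had both, 158 had Trac without Trdc and 60 had neither. Nearly all had a UMI of Trbc1 or Trbc2, the β constant genes, and cells free of Trac, Trbc1 and Trbc2 were 0.0187% to 0.0371% of kept cells per library. The 218 γδ T-like cells without Trdc had 305 CPM of Trac and 454 CPM of Cd79a, a B cell receptor subunit, and Scrublet marked 22.5% of them as doublets. In the 343 cells with at least 5 Trdc UMIs these values were 164 CPM, 93.4 CPM and 3.50%. The share of marked doublets in the whole class was 9.09% and 9.59% at 30 °C and 13.1% and 18.0% at 4 °C.

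**Figure D2:**
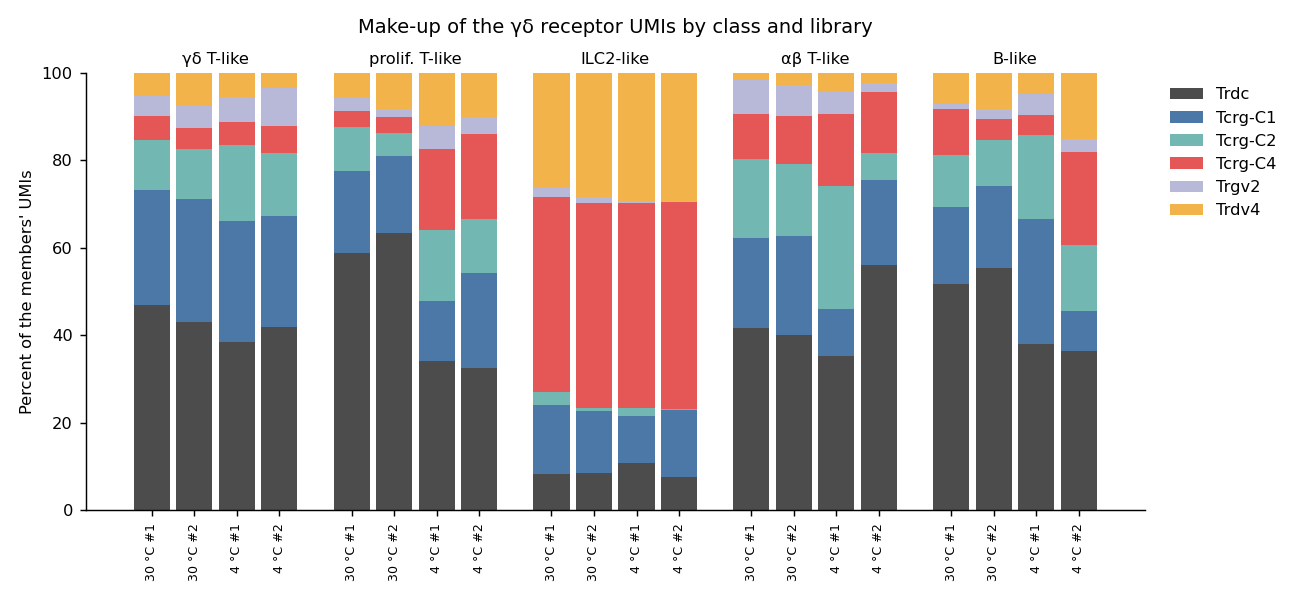
Percent of the summed UMIs of the 6 genes that each gene made up, by class (5 groups of bars) and library (1 bar each; #1 and #2 are the replicates). Trdc and Tcrg-C1 make up most of every γδ T-like bar, whereas Tcrg-C4 and Trdv4 make up most of all 4 ILC2-like bars.

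At 4 °C, 2 of the 6 genes fell in γδ T-like cells and none rose, by edgeR's quasi-likelihood test on summed UMIs, with p-values adjusted (Benjamini-Hochberg) over the 8618 genes of the fit. Of these genes 3.68% passed and 1.93% were lower at 4 °C. Trdc fell by 0.49 on the log2 scale (SE 0.11, adjusted p = 0.00648 by edgeR), and Trdv4 fell by 0.73 (SE 0.16, adjusted p = 0.00689 by edgeR). Tcrg-C1 had a log2 fold change of -0.35 (SE 0.10, adjusted p = 0.0501 by edgeR), just above the threshold of 0.05. Tcrg-C2 (0.19), Tcrg-C4 (-0.23) and Trgv2 (0.15) did not pass either. Both 30 °C libraries lay above both 4 °C libraries for Trdc, Tcrg-C1 and Trdv4, a pattern that 18.8% of the genes tested showed. The δ chain calls did not hold everywhere. With marked doublets left out, Trdc was at -0.31 (adjusted p = 0.298) and Trdv4 at -0.60 (adjusted p = 0.109), both by edgeR, and without 30 °C replicate 1 Trdc was at -0.32 (adjusted p = 0.331 by edgeR). Without 30 °C replicate 2 Trdv4 was at -0.56 (adjusted p = 0.144 by edgeR). Cd79a moved with these values, at 205 and 218 CPM of the class at 30 °C and 328 and 414 CPM at 4 °C, and its part in the result was not tested. Sums over a class cannot tell fewer expressing cells from less RNA per cell.

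The number of γδ T-like cells differed more between libraries than their receptor levels did. They were 198 and 271 cells at 30 °C, which is 3.81% (95% Clopper-Pearson interval 3.31 to 4.37) and 5.03% (4.46 to 5.65) of kept cells. At 4 °C they were 153 and 50 cells, or 2.87% (2.44 to 3.36) and 0.935% (0.695 to 1.23). These intervals, like all below, cover counting error only. The temperatures did not overlap, with 4.42% ± 0.859 (SD, n = 2) against 1.90% ± 1.37, and an exact permutation test gave p = 0.33, two-sided, again the smallest possible. The 4 °C replicates differed from each other by about as much as the means of the temperatures did, and each share depends on how many other cells were sorted with them.

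Proliferating T-like cells showed the widest gap between temperatures. This class was examined after its receptor UMIs had been seen, so its values are a description without a test. Trdc stood at 603 and 727 CPM at 30 °C and at 42.8 and 43.7 CPM at 4 °C, a 15.4-fold ratio of the means. Tcrg-C1 stood at 193 and 201 CPM against 17.2 and 29.1 CPM, and Tcrg-C2 at 103 and 61.4 CPM against 20.4 and 16.4 CPM. Tcrg-C4 differed least, with 36.9 and 42.2 CPM against 23.4 and 26.0 CPM. In all 6 genes both 30 °C libraries lay above both 4 °C libraries, which 17.8% of the genes with at least 10 UMIs in the class did. The class itself was of similar size, with 399 and 407 cells in the 30 °C libraries against 403 and 289 in the 4 °C libraries. These values cover kept cells only. In barcodes with too many genes to be kept, Trdc stood at 263 and 538 CPM at 30 °C and at 75.3 and 76.3 CPM at 4 °C.

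Among kept cells, those rich in Trdc were also fewer in this class at 4 °C. Barcodes with too many genes to be kept were given no class. Of these, 51 and 134 at 30 °C and 26 and 38 at 4 °C had at least 5 Trdc UMIs. At least 5 Trdc UMIs were found in 94 and 82 proliferating T-like cells at 30 °C (23.6% and 20.1% of the class) and in 9 and 9 at 4 °C (2.23% and 3.11%). These 194 cells had a median of 51.5 Trdc UMIs, beside 13 in the 343 such cells of the γδ T-like class, and their median depth was 22464.5 UMIs beside 7995. Cd163l1 stood at 584 CPM in them and at 736 CPM in the γδ T-like ones, and the γ segment Tcrg-V6 at 24.3 and 51.5 CPM. Tcrg-V6 was found in 20.2% and 46.3% of the Trdc-rich proliferating cells of the 30 °C libraries. Mki67, a marker of cycling cells, stood at 582 CPM in them and at 22.9 CPM in the γδ T-like ones. Granzyme A (Gzma), a cytotoxic protease, stood at 1155 and 58.9 CPM in the Trdc-rich proliferating cells of the 30 °C libraries and at 642 and 0 CPM in those of the 4 °C libraries, which are 9 cells each. A minority of these cells carried it, with a Gzma UMI in 21.3% and 19.5% at 30 °C and in 11.1% and 0% at 4 °C. Tcrg-C1 was in front in 155 of the 194 cells, and all 3 γ constant genes were found in 120. In the 1180 proliferating T-like cells without Trdc, Tcrg-C1 was at 4.44 CPM, Tcrg-C4 at 14.2 CPM and Trac at 723 CPM.

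**Figure D3:**
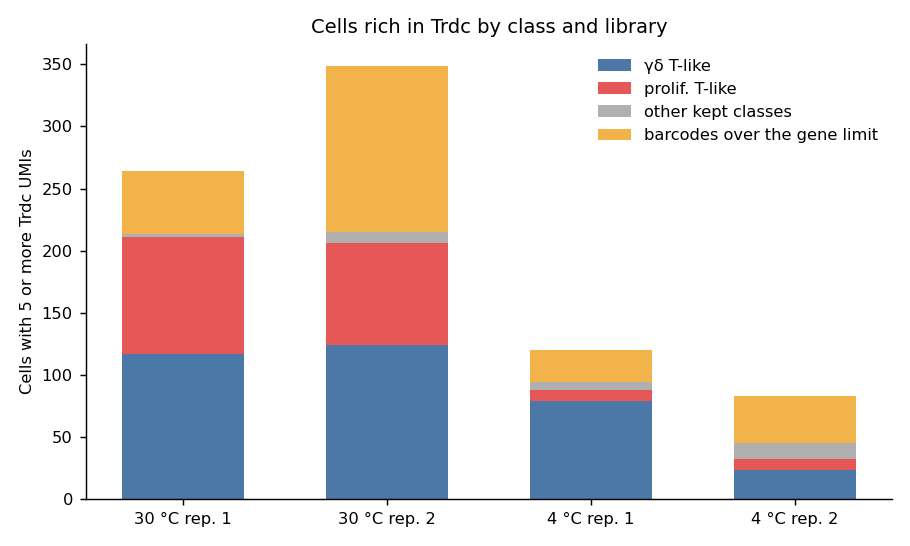
Number of cells with at least 5 Trdc UMIs in each library, stacked by γδ T-like cells, proliferating T-like cells, other kept classes, and barcodes with too many genes to be kept. The proliferating part is 94 and 82 cells in the 30 °C libraries against 9 and 9 in the 4 °C libraries.

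Over all kept cells the 6 genes were lower at 4 °C in both libraries. Trdc stood at 135 and 159 CPM at 30 °C and at 31.2 and 17.2 CPM at 4 °C. Tcrg-C1 stood at 54.4 and 61.7 CPM against 20.1 and 10.4 CPM, and Trdv4 at 15.5 and 25 CPM against 8.61 and 4.72 CPM. Tcrg-C4 had the smallest difference, with 14.5 and 16.4 CPM against 11.9 and 8.59 CPM. For all 6 genes both 30 °C libraries lay above both 4 °C libraries, as did 16.8% of the genes tested. None passed the test in edgeR, where 0.438% of 15076 genes did. All 6 had an unadjusted p under 0.05 by edgeR, from 0.000255 for Trdc to 0.0269 for Tcrg-C2, as did 3115 of the 15076 genes. The log2 fold change was -2.70 (SE 0.28, adjusted p = 0.0549 by edgeR) for Trdc, -2.03 (adjusted p = 0.0805 by edgeR) for Tcrg-C1 and -0.69 (adjusted p = 0.138 by edgeR) for Tcrg-C4. DESeq2 called 5 of the 6, but 848 genes in all, beside 66 by edgeR. Without 4 °C replicate 1 edgeR called 4 of the 6 and 225 genes in all, and without 4 °C replicate 2 it called 3 of the 6 and 489 in all.

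ILC2-like cells carried a different set of the same genes. These 1269 cells were led by Il13, Hlf and Il7r. Tcrg-C4 stood at 71.2 and 103 CPM at 30 °C and at 83.4 and 100 CPM at 4 °C, and Trdv4 at 41.8 and 62.5 CPM against 52.2 and 62.0 CPM. Trdc was far lower, at 13.1 and 18.5 CPM at 30 °C and at 19.4 and 16 CPM at 4 °C. Tcrg-C1 lay between them at 19.1 to 32.5 CPM, and Tcrg-C2 and Trgv2 did not exceed 4.50 CPM in any library. The temperatures overlapped for Trdc, Tcrg-C1, Tcrg-C2, Tcrg-C4 and Trdv4. They did not for Trgv2, which had 8 and 6 UMIs at 30 °C (3.28 and 2.78 CPM) and 2 and 1 UMIs at 4 °C (0.67 and 0.50 CPM) and was too low to be tested. None of the 4 genes that could be tested changed at 4 °C by edgeR, where 10.3% of all genes did, and their unadjusted p lay between 0.298 and 0.965. The fold changes were 0.14 (SE 0.24) for Trdc, -0.26 (SE 0.24) for Tcrg-C1, 0.01 (SE 0.16) for Tcrg-C4 and 0.06 (SE 0.18) for Trdv4, on the log2 scale.

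The make-up of the receptor UMIs separated ILC2-like from γδ T-like cells in every library. Tcrg-C4 held 70.4% and 75.9% of the γ constant UMIs of ILC2-like cells at 30 °C and 79.0% and 75.3% at 4 °C, beside 10.6% to 13.1% in γδ T-like cells. There were 3.19 and 3.38 Trdv4 UMIs per Trdc UMI at 30 °C and 2.69 and 3.88 at 4 °C, beside at most 0.176 in γδ T-like cells. In B-like cells Trdc made up 49.6% of the 224 UMIs of the 6 genes, Tcrg-C4 9.38% and Trdv4 8.48%, beside 43.2%, 5.28% and 5.99% in γδ T-like cells. The B-like make-up varied between libraries, and in 4 °C replicate 2 Tcrg-C4 was 21.2% and Trdv4 15.2% of 33 UMIs. In ILC2-like cells the same 3 genes made up 8.91%, 46.6% and 28.4% of 1819 UMIs.

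Detection at equal depth gave the same picture. Every cell was thinned to 4300 UMIs, and a Tcrg-C4 UMI was then found in 22.6% and 29.4% of ILC2-like cells at 30 °C and in 23.8% and 27.1% at 4 °C. In B-like cells the share was 0.194%, 0%, 0.0601% and 0.139%. With all UMIs kept, the mean shares over libraries were 36.1% ± 5.01 and 0.242% ± 0.152 (SD, n = 4), at median depths of 7109 and 7759 UMIs. A Trdv4 UMI was found at equal depth in 18.7% ± 3.77 of ILC2-like and 0.0904% ± 0.0778 of B-like cells, a Tcrg-C1 UMI in 7.90% ± 2.43 and 0.293% ± 0.187, and a Trdc UMI in 5.98% ± 1.57 and 0.569% ± 0.458. All 4 were higher in ILC2-like cells in 4 of 4 libraries, for which an exact test of sign changes gave p = 0.13, two-sided, the smallest that 4 libraries allow. Tcrg-C2 was found in 0.671% ± 0.600 of ILC2-like cells and in no thinned cell of 4 °C replicate 2, where 0 of 251 cells were positive, and it was higher than in B-like cells in 3 of 4 libraries (exact p = 0.25). Macrophage-like cells, a second class that uses neither chain, had a Tcrg-C4 UMI in 0.451% ± 0.549 and a Trdc UMI in 0.759% ± 0.875 of thinned cells.

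**Figure D4:**
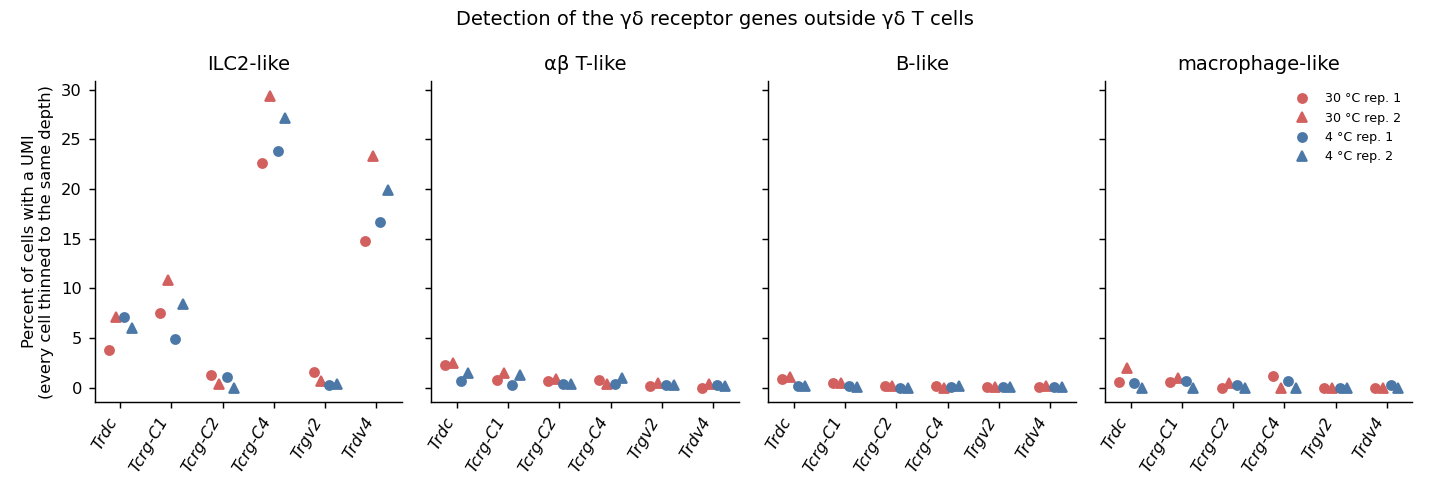
Percent of cells with a UMI of each gene after every cell was thinned to 4300 UMIs, in 4 classes, with 1 point per library (red for 30 °C, blue for 4 °C; circle for replicate 1, triangle for replicate 2). Tcrg-C4 lies between 22.6% and 29.4% in ILC2-like cells, and no gene exceeds 2.43% in αβ T-like cells.

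Summed UMIs of the 2 classes within each library differed likewise. ILC2-like cells exceeded B-like cells in all 4 genes tested, where 59.8% of all genes passed and 29.2% were higher in ILC2-like cells. The log2 differences were 3.34 (SE 0.38) for Trdc, 5.41 (SE 0.30) for Tcrg-C1, 8.03 (SE 0.20) for Tcrg-C4 and 7.45 (SE 0.21) for Trdv4, with adjusted p values from 6.70e-06 down to 2.78e-12 by edgeR with library as a factor. Against αβ T-like cells, 4 of 5 genes were higher in ILC2-like cells, with 40.6% of all genes called and 20.3% higher. The largest were Trdv4 at 6.77 (SE 0.17) and Tcrg-C4 at 5.28 (SE 0.13), Trdc was at 1.15 (SE 0.24), and Tcrg-C2 at -0.19 (SE 0.39) did not pass. Trdv4, at 0.535 CPM in pooled αβ T-like cells, entered this fit through its ILC2-like sums. The classes were drawn from these same cells, without the receptor genes but with genes that go with them.

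Among ILC2-like cells the 2 leading genes were spread over many cells at low counts. Tcrg-C4 and Trdv4 were found together in 141 cells, Tcrg-C4 alone in 314, Trdv4 alone in 231 and neither in 583. Trdv4 was present in 31.0% of cells with Tcrg-C4 and in 28.4% of cells without it. By library these shares were 24.0% and 24.4%, then 28.0% and 33.0%, at 30 °C, and 33.1% and 28.3%, then 38.8% and 29.1%, at 4 °C, so their order was not the same in all libraries. No ILC2-like cell had more than 8 UMIs of Tcrg-C4 or 7 of Trdv4. Only 31 of the 372 cells with Trdv4 (8.33%) also had a Trdc UMI. The defining CD3 subunit of T cells, Cd3e, stood at 12 to 27.4 CPM in ILC2-like cells and at 476 to 606 CPM in γδ T-like cells, and Cd3d at 25.8 to 52.8 CPM against 628 to 763 CPM. Cd3g was closer, at 325 to 487 CPM against 1020 to 1288 CPM. With cells that had a Cd3d, Cd3e or Cd3g UMI left out of both classes, 60 and 82 ILC2-like cells at 30 °C and 86 and 58 at 4 °C remained at equal depth. The difference from B-like cells was then 31.2 percentage points for Tcrg-C4, beside 25.6 over all cells, and 15.4 for Trdv4, beside 18.6.

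αβ T-like cells held the 6 genes at low levels. Trdc stood at 6.50 and 9.31 CPM at 30 °C and at 4.61 and 15.1 CPM at 4 °C, and the other 5 genes stayed under 6 CPM in every library. At equal depth a Trdc UMI was found in 2.25% and 2.43% of αβ T-like cells at 30 °C and in 0.634% and 1.46% at 4 °C. B-like cells gave 0.825% and 1.09% at 30 °C and 0.180% and 0.185% at 4 °C. In both classes the 30 °C libraries lay above the 4 °C libraries. The share was higher in αβ T-like than in B-like cells in 4 of 4 libraries, by 1.13 ± 0.453 percentage points (SD, n = 4; exact test of sign changes p = 0.13, two-sided). Trdv4 was detected in 0.181% ± 0.141 of αβ T-like and 0.0904% ± 0.0778 of B-like cells, a difference that held in 3 of 4 libraries (exact p = 0.25). In summed UMIs, all 4 genes tested were higher in αβ T-like than in B-like cells, by 2.23 (Trdc) to 2.77 (Tcrg-C4) on the log2 scale, where 72.6% of all genes were called and 36.3% were higher. These 4 passed the filter on low counts through their αβ T-like sums. Trgv2 and Trdv4, at 0.963 and 0.535 CPM in pooled αβ T-like cells, were left out. The count of 4 therefore rests on the filter and is a description.

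Trdc in αβ T-like cells was spread unevenly over cells, and more so at 4 °C. Of 5738 cells, 105 had both Trdc and Trac UMIs and 7 had Trdc without Trac. The 16 cells with at least 5 Trdc UMIs (1 and 2 at 30 °C, 3 and 10 at 4 °C) held 12 of 53 and 22 of 73 Trdc UMIs of the class at 30 °C, and 35 of 49 and 134 of 163 at 4 °C. None of the 5 genes tested changed at 4 °C by edgeR, where 7.47% of all genes did. Of the 5, 1 (Trgv2) had an unadjusted p under 0.05 by edgeR, as did 2571 of the 11227 genes of the fit. Trdc had a log2 fold change of 0.27 (SE 0.39, adjusted p = 0.73 by edgeR), which was 0.88 (adjusted p = 0.000191 by edgeR) without 4 °C replicate 1 and -0.81 (adjusted p = 0.0268 by edgeR) without 4 °C replicate 2. Tcrg-C1, at -0.37 over all libraries, was at -1.60 without 4 °C replicate 2 and also passed there. Among the 739 UMIs of the 6 genes in αβ T-like cells, 45.7% were of Trdc, 13.0% of Tcrg-C4 and 2.71% of Trdv4.

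**Figure D5:**
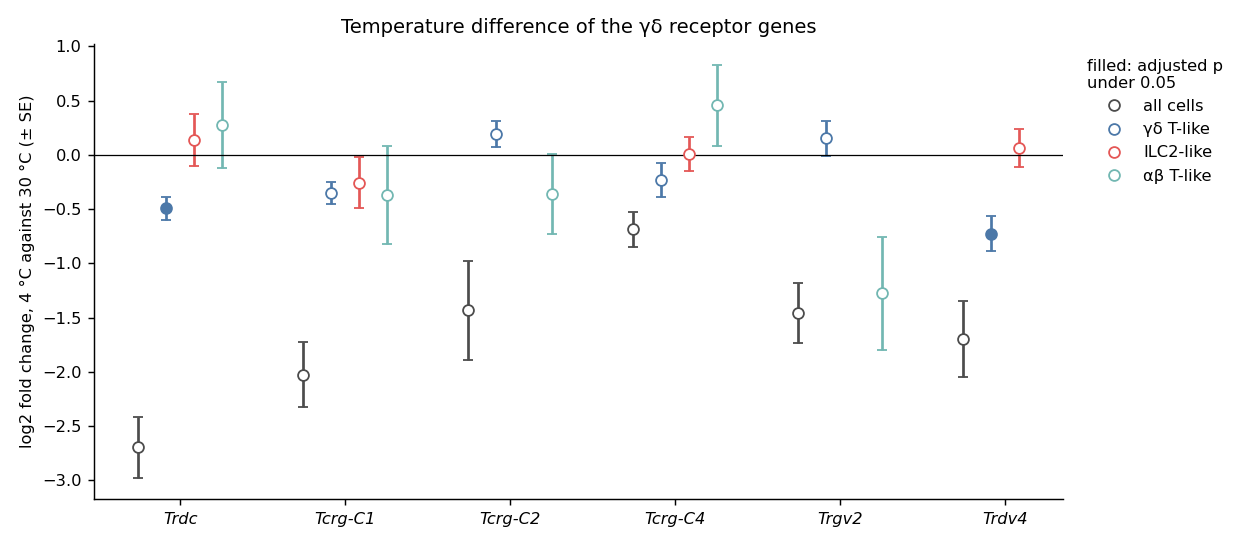
Log2 fold change of each gene at 4 °C against 30 °C by edgeR (points, with SE as bars) in all kept cells and in 3 classes; filled points passed an adjusted p of 0.05. Only Trdc (-0.49) and Trdv4 (-0.73) in γδ T-like cells are filled, and the ILC2-like points lie between -0.26 and 0.14.

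The temperature effect itself was compared between classes. No gene differed between γδ T-like and ILC2-like cells (0.306% of all genes did), between γδ T-like and αβ T-like cells (0.987%) or between ILC2-like and αβ T-like cells (2.04%). The lowest adjusted p was that of Trdc in γδ T-like against αβ T-like cells, with a difference of -0.70 (SE 0.21, adjusted p = 0.086 by edgeR).

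Genes that work with the receptor were followed in 4 lists, beside the 3.68% of all genes that passed in γδ T-like cells (1.93% lower at 4 °C). Of 10 CD3 and signalling genes, such as Cd3e, Lck and Zap70, none passed in γδ T-like cells, with a median log2 fold change of -0.07 beside -0.01 over all genes. Of 14 genes of the IL-17 programme of γδ T cells, 1 rose and 2 fell in the same cells. Il17a, the cytokine itself, rose by 0.99 (SE 0.18, adjusted p = 0.000906 by edgeR) in the class as a whole. In the Trdc-rich cells of this class (at least 5 UMIs), Il17a was at 428 and 267 CPM at 30 °C. It was at 912 and 244 CPM there at 4 °C, and the groups overlapped. Il7r, the receptor for the survival factor IL-7, fell by 0.68 (SE 0.10, adjusted p = 7.36e-05 by edgeR). Rora, a transcription factor of the programme, fell by 0.58 (SE 0.11, adjusted p = 0.00214 by edgeR). Neither fall was particular to this class. Both genes were also called lower in ILC2-like cells, where 10.3% of all genes were called. In αβ T-like cells, where 7.47% were called, Il7r was lower too, at 801 and 724 CPM against 274 and 273 CPM. Rora was not called there. Of the α and β constant genes, Trbc2 rose by 0.39 (SE 0.10, adjusted p = 0.0225 by edgeR) while Trac (-0.11) and Trbc1 (-0.25) did not pass. Trbc2 was also called higher in ILC2-like cells, but not in αβ T-like cells. Of 5 other T cell genes 3 could be tested and none passed. Over all kept cells no gene of these lists passed, and the IL-17 list had a median of -0.73 beside 0.00 over all genes, with 12 of its 14 genes negative.

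The genes most like each member were sought among 12314 genes over 46 sums of a class and a library, with T cell receptor genes left out. These sums share libraries and depth, and the correlations are given as a description. Trdc was most like Cd163l1 (Pearson r = 0.953), Il17a (0.886), Lingo4 (0.871), Adgrg5 (0.867) and 5830411N06Rik (0.866). Cd163l1 was also the closest gene to Tcrg-C1 (0.962), Tcrg-C2 (0.947) and Trgv2 (0.944). Tcrg-C4 and Trdv4 had other neighbours. Tcrg-C4 was closest to Olfr60 (0.941), Lrrc75b (0.934) and Actn2 (0.932), and Trdv4 to Actn2 (0.929), Zp1 (0.922) and Lrrc75b (0.917). Within the set, Trgv2 was most like Tcrg-C2 (0.969), the constant gene it lies before, and Tcrg-C4 and Trdv4 were at 0.902. Tcrg-C1 was about as close to both, at 0.903 with Trdv4 and 0.895 with Tcrg-C4.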

How the data were processed

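Single-cell RNA libraries of sorted ChAT-eGFP+ cells were made with a 3′ kit, with 2 libraries per temperature. The deposited values are UMI counts per gene and barcode, which the authors made by aligning reads to mm10 with STAR in Cell Ranger (3.0.0 in the file header, 3.1.0 in the submitters' processing notes). No value was normalised before deposit. The labels number replicates but do not say that equal numbers share a day or batch.

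Cells were kept with over 200 and under 5000 genes and under 7.5% mitochondrial UMIs, after barcodes with under 100 genes and genes in under 10 cells were dropped. The kept cells were clustered with Seurat 5.3.0 (R 4.3.3; 2000 variable genes, of which 26 T cell receptor genes were removed; 25 components; resolution 0.1). Clusters were named by markers. Doublets were marked with Scrublet in scanpy 1.11.5 (2.4% of kept cells) and stayed in. UMIs were summed per library and class and tested with edgeR 4.0.16 (quasi-likelihood, TMM, filterByExpr, Benjamini-Hochberg 0.05). DESeq2 1.42.0 was an alternative. For detection, each cell was thinned to 4300 UMIs, which left out 2118 shallower cells. Exact permutation tests used scipy 1.17.1, and tables were made with pandas 2.3.3. Total counts per library lay between 76058112 and 84468931. The scripts were tested on simulated data. The named genes were the 6 members, the other γ and δ chain genes with at least 10 UMIs, 4 lists of T cell genes, and the genes most correlated with each member. Members and lists were chosen with earlier results of these data known. P-values for temperature measure the spread between pools, which edgeR shares between genes. Those between classes rest on differences within libraries.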

Additional observations from a re-analysis of the deposited data

Results flagged for a closer look

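Trdc was also found in barcodes left out of the comparisons because they held too many genes to be kept. These were 272 and 405 barcodes at 30 °C and 379 and 432 at 4 °C. Their summed UMIs held Trdc at 263 and 538 CPM at 30 °C and at 75.3 and 76.3 CPM at 4 °C, above the level that a count of 0 allows. At least 5 Trdc UMIs were found in 51 and 134 of them at 30 °C and in 26 and 38 at 4 °C. They held 33.6% and 59.9% of the Trdc UMIs of the 30 °C libraries and 49.9% and 67.4% of those of the 4 °C libraries.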

How the results depend on the processing

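With 2 pools per temperature, an exact test cannot pass 0.05, and the calls of edgeR rest on a spread shared between genes. Of 584 fits of the 6 genes under alternatives, 514 kept their direction and side of the threshold, 5 no longer passed, 28 newly passed and 37 changed sign. The cause of each change below was not tested. The upper limit on genes per cell and the cells without Trac, with at least 5 Trdc UMIs or without Trac and Trbc were chosen after seeing the data.

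Over all kept cells 66 genes were called, and 848 with DESeq2, 8 with the replicate block, 108 with a mitochondrial limit of 15%, 6 with no upper gene limit and 0 to 489 with 1 library left out. Of the 6 genes 0 were called, and 5 with DESeq2, 1 without a filter on low counts, 1 with the 15% limit and 0 to 4 with 1 library left out. In γδ T-like cells 317 genes were called, and 72 with DESeq2, 524 with the replicate block, 131 without doublets, 824 with receptor genes kept in clustering and 175 to 402 with 1 library left out. Of the 6 genes 2 were called there, and 1 with DESeq2, 0 without doublets and 1 to 2 with 1 library left out. In ILC2-like cells 921 genes were called, and 361 with DESeq2 and 492 to 772 with 1 library left out. In αβ T-like cells 839 were called, and 334 with DESeq2, 447 without a filter and 1494 with the replicate block. Of the 6 genes 0 were called there with the main settings.

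The labels share replicate numbers only, and the deviations of same-numbered libraries correlated at 0.105 over all cells, -0.02 in γδ T-like, 0.091 in ILC2-like and 0.109 in αβ T-like cells. With the replicate block, Tcrg-C1 in γδ T-like cells was at -0.36 (adjusted p = 0.00393 by edgeR).

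Leaving out 1 library moved log2 fold changes at 4 °C across 0. In γδ T-like cells Trgv2 ran from -0.093 to 0.55. In ILC2-like cells Trdc ran from -0.11 to 0.40, Tcrg-C1 from -0.62 to 0.14, Tcrg-C4 from -0.25 to 0.30 and Trdv4 from -0.21 to 0.38. In αβ T-like cells Trdc ran from -0.81 to 0.88, Tcrg-C1 from -1.60 to 0.28 and Tcrg-C2 from -1.04 to 0.11. Between ILC2-like and αβ T-like cells Tcrg-C2 ran from -0.68 to 0.092. With the 15% limit Trdv4 in ILC2-like cells was at -0.0051 and Tcrg-C4 in αβ T-like cells at -0.13, which was -0.17 at resolution 0.3, and with receptor genes kept Tcrg-C2 in αβ T-like cells was at 0.43.

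For the difference of temperature effects between γδ T-like and ILC2-like cells, 29 of 9488 genes were called. Calls among the 6 genes were 0 there, and 1 without a filter and 2 with receptor genes kept. For γδ T-like against αβ T-like cells, where 109 of 11038 genes were called, they were 0. They were 1 without a filter, with receptor genes kept or at resolution 0.3. How many of all genes passed in these alternative fits is not given here. The counts therefore say nothing about the 6 genes in particular. Against ILC2-like cells, Tcrg-C1 was at 0.055 without doublets and ran from -0.54 to 0.31 with 1 library left out, Tcrg-C2 from -0.15 to 2.55 and Tcrg-C4 from -0.71 to 0.24. Against αβ T-like cells, Trdc ran from -1.33 to 0.27 and Tcrg-C1 from -0.72 to 1.29, and with receptor genes kept Tcrg-C1 was at -0.17 and Tcrg-C2 at -0.21. For ILC2-like against αβ T-like cells, Trdc ran from -0.92 to 1.05, Tcrg-C1 from -0.15 to 0.96 and Tcrg-C2 from -1.57 to 0.90. There the 15% limit gave 0.052 for Trdc, 0.18 for Tcrg-C4 and 0.17 for Trdv4, receptor genes kept gave 0.35 for Trdc and 0.65 for Trdv4, and resolution 0.3 gave 0.22 for Tcrg-C4 and 0.23 for Trdv4.

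The difference in Tcrg-C1 share was -4.83 percentage points without Trac cells, -10.1 in cells with at least 5 Trdc UMIs and -10.9 with receptor genes kept. That of Tcrg-C2 was 1.40 without Trac cells and 9.61 with receptor genes kept, and that of Tcrg-C4 was 3.43 without Trac cells and 1.73 in cells with at least 5 Trdc UMIs. With all UMIs of each cell, ILC2-like minus B-like shares were 7.82 points for Trdc, 35.8 for Tcrg-C4 and 29.3 for Trdv4, and without cells with a Cd3 UMI Tcrg-C4 was at 31.2. The γδ T-like share differed by -3.86 points with receptor genes kept and by -0.00945 without cells with Trac or Trbc.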

Other observations

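The feature table held 20 further γ or δ chain genes, of which 9 had no UMI in kept cells, 2 had fewer than 10 and 9 had at least 10. Tcrg-V6 had the most, with 301 UMIs, of which 159 lay in γδ T-like and 116 in proliferating T-like cells. Tcrg-V4 had 157 UMIs, 116 of them in γδ T-like cells. Most UMIs of Trdv2-2 and Tcrg-V1 lay elsewhere, with 90 of 183 Trdv2-2 UMIs and 63 of 153 Tcrg-V1 UMIs in ILC2-like cells. By level, Trdv2-2 stood at 9.39 CPM in ILC2-like and 3.21 CPM in γδ T-like cells. Tcrg-V1 was alike in the 2 classes, at 6.57 and 6.26 CPM. Of 28 Trdv1 UMIs, 23 lay in αβ T-like cells. Trdv5, which overlaps the end of Trdc on the other strand, had 116 UMIs, 80 of them in γδ T-like cells. Tcrg-V5 had 60 UMIs, Tcrg-C3 had 21 and Tcrg-V3 had 11.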
